A study of Mus musculus with 18 samples.

Results

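Betaine-homocysteine methyltransferase, encoded by Bhmt, and 9 genes of the reactions around it were followed in mouse kidney: Bhmt2, Chdh, Aldh7a1, Dmgdh, Sardh, Gnmt, Mtr, Mthfd1 and Shmt1. The 10 genes are the rows of these names among 55385 genes, and all 10 were among the 17575 genes that passed the filter on low counts. They were put together around the low Bhmt level of 2 mouse groups that carry a chromosomal duplication. Differences of the 10 genes from wild-type, and any calls printed with them, are therefore descriptions. Tests are read only in the other comparisons.

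Betaine is made from choline in mitochondria, by choline dehydrogenase (Chdh) and an aldehyde dehydrogenase (Aldh7a1, which also acts in lysine breakdown). BHMT moves a methyl group from betaine to homocysteine, which gives methionine and dimethylglycine. It is abundant in liver and is also found in the proximal tubule of the kidney. Dimethylglycine dehydrogenase (Dmgdh) and sarcosine dehydrogenase (Sardh) then strip the remaining methyl groups and pass them to folate. Methionine synthase (Mtr) remethylates homocysteine with methyl folate, and Bhmt2 encodes a related enzyme that uses S-methylmethionine. Gnmt spends methyl groups on glycine, and Mthfd1 and Shmt1 turn over folate one-carbon units in the cytosol. Betaine is also an osmolyte that kidney cells take up through transporters.

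Whole kidneys of 18 mice aged 17.1 to 18.0 weeks were sequenced as polyA RNA, 3 males and 3 females in each of 3 genotypes with no treatment. The wild-type group is the C57BL/6J strain. Dp16, used to model trisomy 21, is a line in which the stretch of mouse chromosome 16 between Lipi and Zbtb21 is duplicated. Dp16 2xIFNRs mice carry the duplication too, with the interferon receptor genes inside the segment brought back to the usual copy number. The labels do not give the background strain of the duplication animals, litters or the time of day of collection. The last number of the sample description is shared in 7 pairs of animals, and the labels do not say what it stands for. The main fits treat the 18 animals as independent. Where nothing says more, p-values measure the spread between these animals.

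Libraries held 42157790 to 57814587 gene counts. Ifnar2, 1 of the 4 receptor genes, had a log2 fold of 0.80 in Dp16 and 0.20 in Dp16 2xIFNRs against wild-type, and Xist and Ddx3y matched the labelled sex in all 18 libraries. The proximal tubule marker Miox stood at 1331 RPKM or more in every library, while others of the lists were low in some or all of them, such as Adra1a (at most 2.45 RPKM) and Slc7a13 (from 0.44 RPKM; RPKM is a count scaled by gene length and by the library's total). A pair of wild-type female libraries stood apart. In wild-type replicate 2 the liver genes Ahsg, Apoa1 and Serpina3k summed to 25.7 RPKM, against 0.24 to 2.44 in the other 17 libraries. Mat1a, the liver form of methionine adenosyltransferase, had 181 counts there and at most 3 elsewhere. In wild-type replicate 5 the 6 adrenal markers summed to 33.0 RPKM, against 0.121 to 4.18 in the other 17. Results that rest on these libraries are given with and without them.

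None of the 10 genes lies on the duplicated segment. Bhmt (ENSMUSG00000074768, minus strand) lies at chr13:93616675-93637961 in GRCm38, and Bhmt2 (minus strand) follows at chr13:93655720-93674302. Dmgdh (plus strand) starts next to Bhmt2, at chr13:93674433-93752833, so that these 3 genes are neighbours. The start of Bhmt differs between annotations, since GENCODE places it 203 bases upstream of the RefSeq start. The RefSeq window of 250 bases upstream of Bhmt holds 3 copies of AGGTCA, the half-site bound by many nuclear receptors. They are shown because Bhmt carries the result, each in 30 bases on the strand of the gene from RefSeq (GRCm38.p6), with the half-site in capitals.
Bhmt, chr13:93637975-93638004: tgtgccagatgtAGGTCAtgcagtttacac
Bhmt, chr13:93637813-93637842: gaccccagatcaAGGTCAgaggcctgctat
Bhmt, chr13:93637788-93637817: gctattggacaaAGGTCAgtgtgcagacga
The last 2 stretches overlap, and by the GENCODE start they lie inside Bhmt, with only the first upstream of it. On either strand, AGGTCA occurred in 14.0% of 32851 such RefSeq windows of 250 bases, and 3 or more copies in 0.131%. The motif was chosen after the expression values were known, and a match is a description of letters, not a site.

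Bhmt2 and Dmgdh are transcribed away from each other from a gap of 130 bases, 70.8% of them G or C. It is shown, on the plus strand and with nothing in capitals, because both genes share it as upstream sequence.
Bhmt2 to Dmgdh, chr13:93674303-93674432: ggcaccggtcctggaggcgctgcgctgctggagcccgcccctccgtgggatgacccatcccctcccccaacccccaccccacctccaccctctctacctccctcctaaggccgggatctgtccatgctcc
AGGTCA is not among the letters of the RefSeq windows of Bhmt2 or Dmgdh.

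Bhmt was high in females and low in males of each genotype, and within each sex it was lower in both duplication groups than in wild-type. The 3 wild-type females had 57.2, 32.1 and 38.9 RPKM (42.7 ± 12.9, SD, n = 3). The 3 wild-type males had 1.32, 2.20 and 2.96 RPKM (2.16 ± 0.822, n = 3). The sexes did not come near each other.

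Dp16 females had 12.9, 8.12 and 20.3 RPKM of Bhmt (13.8 ± 6.12, n = 3), and Dp16 males 0.725, 0.545 and 0.579 RPKM (0.616 ± 0.0954, n = 3). Dp16 2xIFNRs females had 13.1, 9.52 and 10.6 RPKM (11.1 ± 1.84, n = 3), and Dp16 2xIFNRs males 0.688, 0.400 and 0.588 RPKM (0.559 ± 0.146, n = 3). The highest duplication animal stayed below the lowest wild-type animal of its sex, in females and in males. In order of level, wild-type females came first, then Dp16 and Dp16 2xIFNRs females, whose ranges overlapped. Wild-type males followed, and Dp16 and Dp16 2xIFNRs males, whose ranges also overlapped, came last.

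The mean of Dp16 was 32.2% of wild-type in females and 28.5% in males. The mean of Dp16 2xIFNRs was 26.0% in females and 25.9% in males. In edgeR, with sex as a term, the log2 fold of Bhmt against wild-type was -1.74 ± 0.21 (SE) in Dp16 and -1.98 ± 0.21 in Dp16 2xIFNRs (n = 6 per group). Both comparisons share the wild-type animals. Ranked over the 12615 genes whose log2 CPM (counts scaled to a common library total) averaged 1 or more, Bhmt was the 2nd lowest log2 fold in Dp16 and the 4th lowest in Dp16 2xIFNRs. No p is given for these, since Bhmt was chosen on them. In bulk tissue, fewer cells that make an RNA and less of it per cell cannot be told apart.

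**Figure D1:**
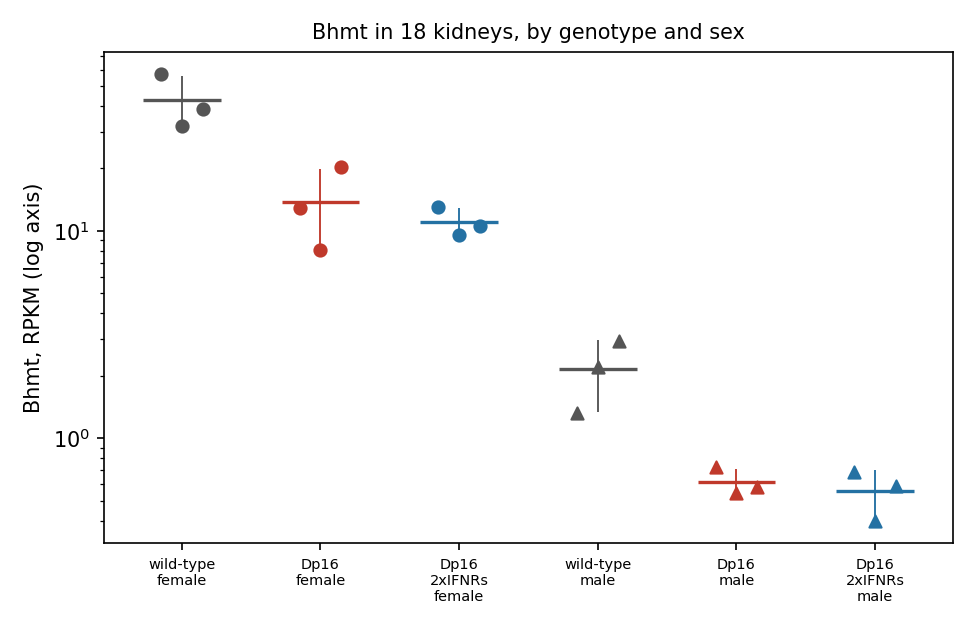
Bhmt in each of the 18 kidneys, in RPKM on a log axis, by genotype and sex; points are animals (circles female, triangles male), horizontal lines group means and vertical lines 1 SD (n = 3). Every duplication animal lies below every wild-type animal of its own sex, and each female lies above each male.

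Counts of Bhmt were 948 to 6868 in female libraries and 42 to 386 in male libraries, so the male values rest on fewer reads. Gm15622, an overlapping antisense gene, had at most 17 counts, up to 0.932% of those of Bhmt in females and 5.21% in males. The strand setting of the counting is not stated, so reads of such partners may not be told apart. Bhmt and Bhmt2 transcripts shared 40 stretches of 31 bases, 1.63% of those of Bhmt.

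The highest Bhmt value, 57.2 RPKM, was that of the wild-type female whose library held liver RNA, and the part of that RNA in the value was not tested. Without this animal the wild-type female mean was 35.5 RPKM (n = 2), and Dp16 females stood at 38.7% and Dp16 2xIFNRs females at 31.2% of it. The log2 folds were then -1.61 and -1.86. Without wild-type replicate 5, which held adrenal RNA, they were -1.83 and -2.08. Over all 18 refits that left out 1 library each, the log2 fold lay between -1.95 and -1.60 in Dp16 and between -2.09 and -1.86 in Dp16 2xIFNRs.

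Other markers moved with the groups, and their part in the Bhmt values was not tested. Genes counted as falling or rising are edgeR calls, and over all genes tested 4.23% were called in Dp16 and 4.79% in Dp16 2xIFNRs. Nothing is read from list counts near those shares. Of 10 genes typical of the first parts of the proximal tubule, 3 fell in each duplication group: Slc22a8 (log2 fold -0.42 and -0.43), Slc13a3 and Slc22a7, while Miox rose in Dp16. Their summed level was 11124 to 12676 CPM in wild-type, 9778 to 11706 in Dp16 and 10317 to 12269 in Dp16 2xIFNRs. Of 10 macrophage genes, 8 rose in Dp16 and 7 in Dp16 2xIFNRs, with sums of 172 to 245, 268 to 333 and 252 to 338 CPM. Of 10 lymphocyte genes, 4 rose in Dp16 and 2 in Dp16 2xIFNRs, among them Cd4 (1.12 and 1.08) and the T cell receptor gene Trac. Calb1 of the distal tubule (0.38 and 0.40) rose in both groups. Of 10 liver genes, 8 were tested, and Alb fell in Dp16 (log2 fold -1.26) and Alb and Apoc3 in Dp16 2xIFNRs. The Alb folds include the wild-type female with liver RNA, at 86.5 RPKM of Alb. The other wild-type females had 16.8 and 15.7 RPKM, inside the range of 11.3 to 17.9 of Dp16 females. Both lay above the Dp16 2xIFNRs females, at 9.76 to 13.2 RPKM. Wild-type males had 6.12 to 8.87 RPKM of Alb, above Dp16 males (2.9 to 4.22) and Dp16 2xIFNRs males (3.1 to 5.09). Among the liver genes Ahsg was at 0 in 2 wild-type, 3 Dp16 and 2 Dp16 2xIFNRs libraries. The sums of the list overlapped, at 108 to 338, 147 to 280 and 129 to 263 CPM.

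Dbp, a clock output gene whose RNA swings over the day, ran from 5.92 to 146 RPKM in wild-type, 6.52 to 71.9 in Dp16 and 5.85 to 118 in Dp16 2xIFNRs. Of 14 clock genes, 1 fell in Dp16 (Hlf, log2 fold -0.76 ± 0.19, edgeR adjusted p = 0.0293) and 0 passed in Dp16 2xIFNRs by that test. Over all genes tested the shares called were 4.23% and 4.79%. The means of Dbp were 80.5, 32.9 and 46.8 RPKM, and the part of the time of day in the Bhmt values was not tested.

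**Figure D2:**
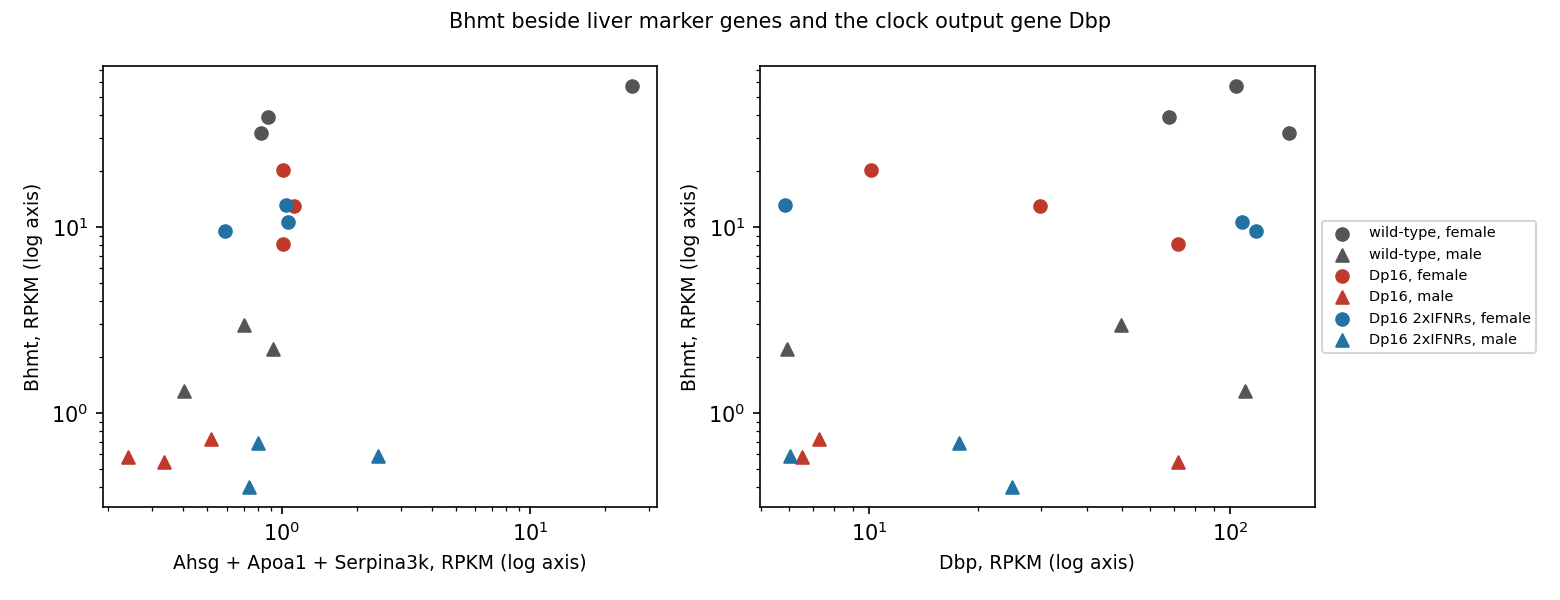
Bhmt in RPKM (log axis) against the sum of 3 liver genes (left) and against Dbp (right), both in RPKM on log axes, for 18 animals coloured by genotype (circles female, triangles male). One wild-type female stands alone at 25.7 RPKM of liver genes, and Dbp spans a wide range within each genotype.

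The duplication groups, which differ in the copy number of the receptor genes, did not differ detectably in Bhmt. Dp16 2xIFNRs stood -0.25 ± 0.22 (log2 fold) from Dp16, with n = 6 animals in each (adjusted p = 0.857 in edgeR), which does not show that the levels are alike. Of the 10 genes 0 passed in this comparison, where 0.0171% of all genes tested did. Likewise 0 had an unadjusted p under 0.05, and DESeq2 called 0. The log2 folds ran from -0.25 (Bhmt) to 0.16 (Mtr), with a median of -0.05 against 0.00 over all genes. The 3 genes called in all were Ifnar2, Ifngr2 and Il10rb.

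No difference between the sexes in the lower Bhmt of the duplication groups was detectable. In Dp16 the log2 fold was -1.66 ± 0.29 in females and -1.85 ± 0.35 in males, and their difference was -0.19 ± 0.44 (edgeR interaction, adjusted p = 0.911). In Dp16 2xIFNRs it was -1.97 ± 0.29 and -1.99 ± 0.35, with a difference of -0.01 ± 0.40 (adjusted p = 1). Of the 10 genes 0 passed any of the 3 interaction tests, where 0.0171% of all genes passed for Dp16, 0.00569% for Dp16 2xIFNRs and 0% between them. Each test also had 0 members at an unadjusted p under 0.05, and DESeq2 called 0.

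Among the other 9 genes, differences from wild-type were far smaller than that of Bhmt. By edgeR, 1 of the 9 was called in Dp16 and 3 in Dp16 2xIFNRs, all lower, while 4.23% and 4.79% of all genes tested were called and 1.06% and 1.61% were called lower. Since these comparisons were used to choose the genes, nothing is read from the counts. The calls and refits against wild-type given below for single genes of the 9 are likewise descriptions, not independent support. The median log2 fold of the 9 was -0.13 and -0.15, against -0.01 and 0.01 over all genes. With Bhmt, 2 of the 10 genes in Dp16 and 4 in Dp16 2xIFNRs had every animal below every wild-type animal of its sex, as had 0.916% and 1.97% of all genes.

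The largest differences among these were those of Sardh, Dmgdh and Bhmt2, of which the first 2 are the demethylating enzymes downstream of betaine. Sardh was at 129, 141 and 144 RPKM in wild-type females and at 131, 144 and 152 in wild-type males. Dp16 females had 91.1, 109 and 127 RPKM and Dp16 males 98.7, 102 and 104. Dp16 2xIFNRs females had 112, 114 and 119 RPKM and males 107, 109 and 111. No duplication animal reached the wild-type range of its sex, and the log2 fold was -0.45 ± 0.07 in Dp16 and -0.36 ± 0.06 in Dp16 2xIFNRs.

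Dmgdh, the enzyme before it, had 60.6 ± 6.80 RPKM in wild-type females and 55.2 ± 3.55 in wild-type males (SD, n = 3). The means were 55.3 ± 11.4 and 42.9 ± 1.17 in Dp16, and 48.4 ± 4.34 and 41.7 ± 3.71 in Dp16 2xIFNRs. Dp16 females overlapped wild-type females here, and the other duplication animals did not overlap wild-type animals of their sex. The log2 fold was -0.28 ± 0.08 in Dp16, which the main edgeR fit did not call. EdgeR did call it with RLE size factors, without the count filter, and without wild-type replicate 6 or Dp16 replicate 4. DESeq2 called it, as did limma with the description number as a random block. In Dp16 2xIFNRs the log2 fold was -0.40 ± 0.08, which was called in all 18 refits.

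Bhmt2, which lies head to head with Dmgdh across the gap printed above, stood at 45.2 to 46.5 RPKM in wild-type females and 60.2 to 66.0 in wild-type males. Dp16 females ranged from 31.3 to 48.6 RPKM and Dp16 males from 49.2 to 51.1. Dp16 2xIFNRs females ranged from 28.8 to 38.7 RPKM and males from 50.2 to 58.0. Its log2 fold was -0.28 ± 0.09 in Dp16, which the main edgeR fit did not call. EdgeR did call it without the count filter or without Dp16 replicate 4, and so did DESeq2. In Dp16 2xIFNRs the log2 fold was -0.36 ± 0.09 and was called by edgeR. The call was lost without Dp16 2xIFNRs replicate 4 or 6 and in limma on RPKM. It was also lost in edgeR without sex as a term (adjusted p = 0.519).

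The enzymes that make betaine were not called against wild-type. Chdh had log2 folds of -0.15 ± 0.09 and -0.05 ± 0.09, and Aldh7a1 of -0.13 ± 0.05 and -0.15 ± 0.05, in Dp16 and Dp16 2xIFNRs. Mtr, which competes with BHMT for homocysteine, had 0.04 ± 0.12 and 0.20 ± 0.12. Gnmt stood at 0.02 ± 0.10 and -0.15 ± 0.10, Mthfd1 at -0.13 ± 0.05 and -0.10 ± 0.05, and Shmt1 at 0.05 ± 0.06 and -0.05 ± 0.06. None of these 6 was called by edgeR with all libraries, and Aldh7a1 in Dp16 2xIFNRs was called without wild-type replicate 6. DESeq2 called Mthfd1 in Dp16 and Aldh7a1 in Dp16 2xIFNRs as well, 4 of the 9 genes in each.

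**Figure D3:**
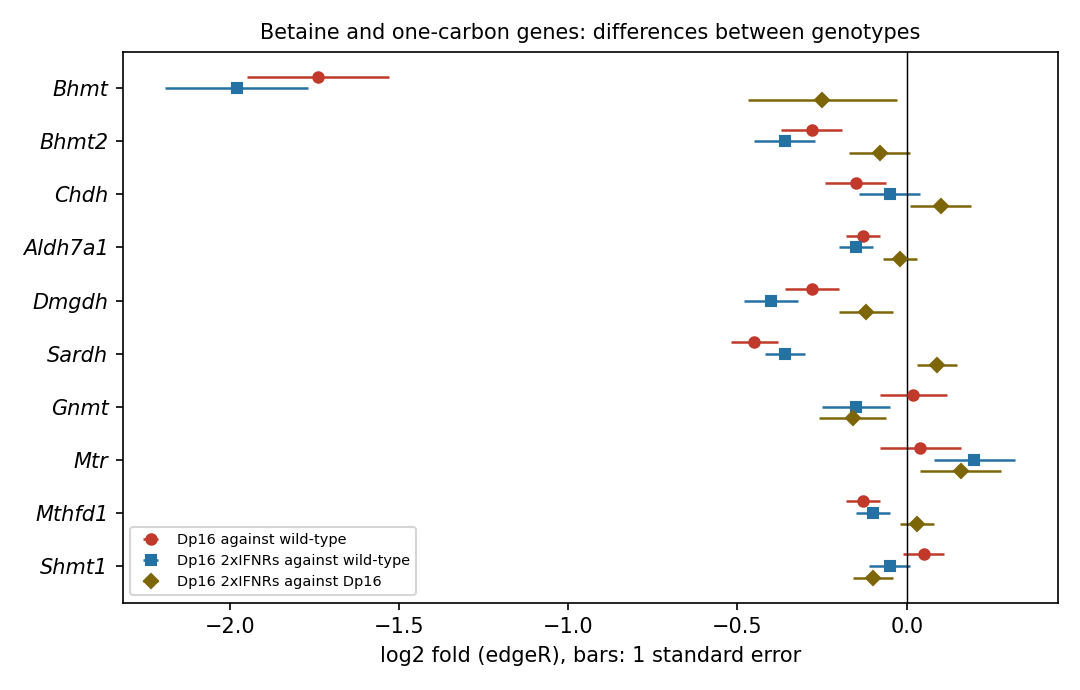
Log2 folds from edgeR (x axis) of the 10 genes for the 3 genotype comparisons, n = 6 animals per group; bars are 1 standard error. Bhmt lies near -1.74 and -1.98 against wild-type, the other genes lie between -0.45 and 0.20, and all 10 lie within -0.25 and 0.16 between the duplication groups.

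Per gene length, Sardh, Aldh7a1 and Mthfd1 were the most abundant of the 10 in wild-type kidney, with means of 91.5 to 142 RPKM over both sexes. Bhmt (42.7 RPKM) came close to Bhmt2 (45.8 RPKM) in wild-type females. In wild-type males Bhmt (2.16 RPKM) was far below Bhmt2 (64.0 RPKM), and its range overlapped that of Mtr (2.54 to 3.54 RPKM), the least abundant of the other genes. In duplication males Bhmt lay below Mtr in every animal.

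Males and females were compared next, which was not used to choose the genes. Of the 10 genes 5 differed between males and females by edgeR, where 38.8% of all genes tested did, and DESeq2 called 6. Bhmt and Shmt1 were higher in females (19.7% of all genes), and Chdh, Bhmt2 and Mtr higher in males (19.0%). The share of the 10 genes was thus near that of all genes. All 5 calls held in each of the 18 refits that left out 1 library.

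In males against females the fold of Bhmt was -4.23 ± 0.19 on the log2 scale (edgeR adjusted p = 5.13e-13, 9 animals of each sex), the 12th lowest of 12615 genes. Without wild-type replicate 2 it was -4.14. The female mean was 19.8 times the male mean in wild-type, 22.3 times in Dp16 and 19.8 times in Dp16 2xIFNRs (the interaction tests above bear on these ratios).

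Shmt1, which moves a one-carbon unit from serine to folate, had 32.9, 33.5 and 38.1 RPKM in wild-type females and 16.7, 17.2 and 18.5 in wild-type males. Dp16 females had 35.4, 37.7 and 38.1 RPKM and males 16.3, 18.3 and 20.6. Dp16 2xIFNRs females had 31.8, 34.1 and 36.5 RPKM and males 16.1, 16.7 and 19.6. No male reached the lowest female, and the log2 fold was -0.87 ± 0.05 (edgeR adjusted p = 6.29e-11).

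Chdh, the entry to betaine synthesis, ran from 35.3 to 56.6 RPKM in females and from 60.7 to 73.2 in males, a log2 fold of 0.59 ± 0.07 (edgeR adjusted p = 1.82e-06). Bhmt2 ran from 28.8 to 48.6 RPKM in females and from 49.2 to 66.0 in males, with 0.58 ± 0.07 (adjusted p = 2.88e-06). Neither gene overlapped between the sexes. Mtr overlapped, at 2.30 to 3.70 RPKM in females and 2.54 to 4.40 in males, with 0.51 ± 0.10 (adjusted p = 0.000356). The pair of homocysteine methyltransferase genes thus went opposite ways with sex, Bhmt up in females and Bhmt2 up in males.

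The other genes gave smaller differences, from -0.12 ± 0.07 for Dmgdh to 0.16 ± 0.09 for Gnmt, and were not called. Gnmt was called without wild-type replicate 2 (0.22, edgeR adjusted p = 0.0341), the library with liver RNA, or 4, and Aldh7a1 without Dp16 replicate 3, 4 or 6 and in DESeq2. Bhmt2 and Dmgdh, which share their upstream gap, differed with sex by 0.58 and -0.12. In limma on RPKM, which differs from edgeR both in its test and in scaling each library to its total, the median of all genes moved from -0.03 to -0.132. Genes called higher in males then numbered 1928 and lower 5883, against 3347 and 3466 in edgeR. Dmgdh (-0.23, adjusted p = 0.0119) and Mthfd1 (-0.18, adjusted p = 0.00119) were called lower in males there, and the 5 calls above kept their direction.

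**Figure D4:**
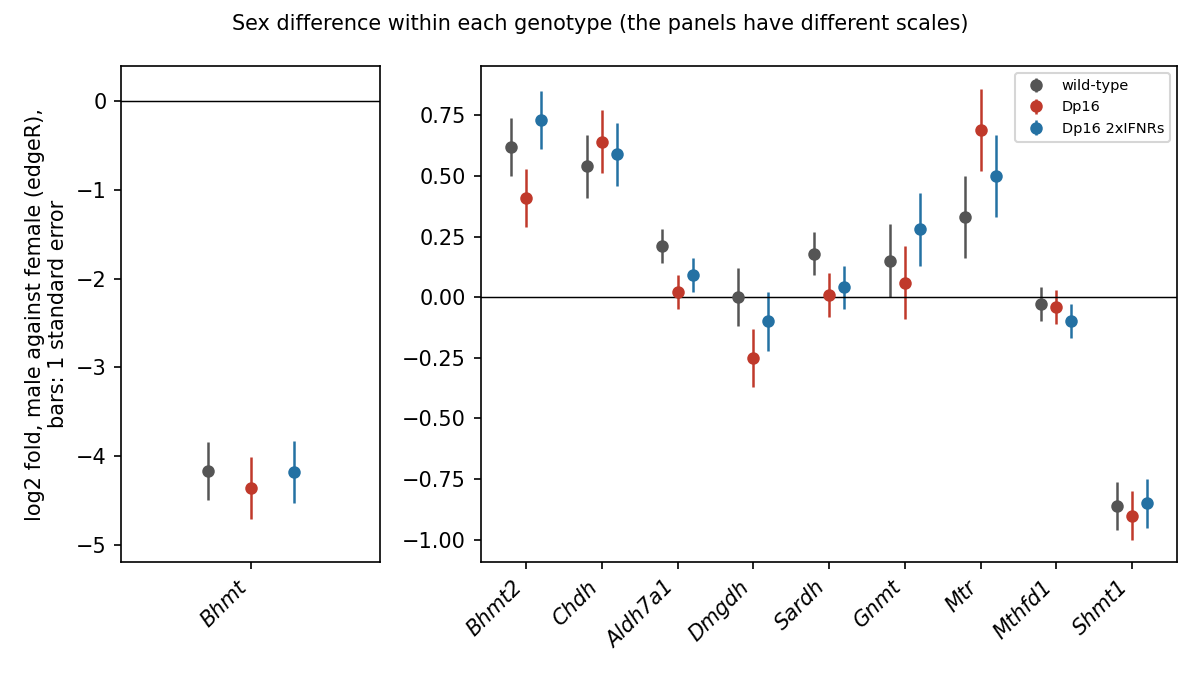
Log2 fold of males against females (y axis, edgeR, bars 1 standard error) within each genotype, n = 3 animals per sex, for Bhmt (left) and the other 9 genes (right, on a finer scale). Bhmt lies between -4.36 and -4.17 in all 3 genotypes, Shmt1 near -0.87, and Bhmt2, Chdh and Mtr above 0.

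The surrounding pathways were taken from 10 lists with 110 genes on the methionine cycle, methyl acceptors, sulfur amino acids, choline, betaine transport, glycine and serine, folate and cobalamin. Of these, 104 were tested. The lists were chosen with earlier results of these data known. Genes named for genotype are those called here, so the shares and p-values below describe them and are not independent support. In Dp16 2 were higher and 7 lower than wild-type (8.65%, against 4.23% of all genes), and in Dp16 2xIFNRs 2 were higher and 9 lower (10.6%, against 4.79%). Their median log2 folds were -0.05 and -0.07, against -0.01 and 0.01 over all genes. Between the duplication groups 0 passed by edgeR, with 3 at an unadjusted p under 0.05.

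Ftcd, which feeds the formimino group of histidine into folate, had the largest fall of these genes. Wild-type females had 2.80, 1.63 and 1.76 RPKM and wild-type males 6.40, 6.65 and 7.36. Dp16 females ranged from 0.809 to 1.15 RPKM and males from 2.37 to 3.47. Dp16 2xIFNRs females ranged from 0.662 to 1.37 RPKM and males from 2.50 to 3.71. No duplication animal reached the wild-type animals of its sex.

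The log2 fold of Ftcd was -1.13 ± 0.17 in Dp16 (edgeR adjusted p = 0.000695) and -1.18 ± 0.17 in Dp16 2xIFNRs (adjusted p = 0.000552). The highest wild-type female was again the one with liver RNA, and without it the folds were -1.02 and -1.07. Unlike Bhmt, Ftcd was higher in males, by 1.80 ± 0.14 (adjusted p = 3.9e-09). The 250 bases upstream of its RefSeq start (GRCm38.p6, plus strand) are shown beside those of Bhmt because both genes were lower in the duplication groups. Capitals mark GTTAAT, a half-site known for the HNF1 factors in kidney and liver, which stands first. The second run in capitals is TATAAA, the letters of a TATA box. As for Bhmt, a match is a description of letters, not a site.
Ftcd, chr10:76575398-76575647: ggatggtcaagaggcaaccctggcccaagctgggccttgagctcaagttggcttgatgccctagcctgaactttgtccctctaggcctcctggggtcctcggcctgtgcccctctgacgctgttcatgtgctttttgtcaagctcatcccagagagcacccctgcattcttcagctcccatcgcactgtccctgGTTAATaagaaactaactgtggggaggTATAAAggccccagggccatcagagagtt
On either strand these occurred in 6.43% and 12.4% of the 32851 windows, AGGTCA is not among the letters of this one, and neither of its motifs is in the window of Bhmt.

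Transporters moved in both directions. Slc6a12, the betaine and GABA transporter BGT1, rose by 0.67 ± 0.18 in Dp16 (edgeR adjusted p = 0.0333) and 1.07 ± 0.17 in Dp16 2xIFNRs (adjusted p = 0.00139). Its level was low, at 0.558 to 1.05 RPKM in wild-type females and 1.17 to 1.38 and 1.27 to 1.49 in Dp16 and Dp16 2xIFNRs females. Males had 0.436 to 0.550 RPKM in wild-type, 0.605 to 1.02 in Dp16 and 0.923 to 1.55 in Dp16 2xIFNRs. Every duplication animal was above the wild-type animals of its sex. The call in Dp16 held in 12 of 18 refits without 1 library and was lost without wild-type replicate 1, 2, 4 or 5 or Dp16 replicate 3 or 6 (adjusted p up to 0.0899); that in Dp16 2xIFNRs held in all 18.

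Flvcr1, a choline and heme transporter, rose by 0.61 ± 0.11 in Dp16 (edgeR adjusted p = 0.00236) and 0.59 ± 0.11 in Dp16 2xIFNRs (adjusted p = 0.0027). Its range was 3.36 to 3.71 RPKM in wild-type females, 4.10 to 5.77 in Dp16 and 4.89 to 6.13 in Dp16 2xIFNRs females. In males it was 1.90 to 2.92, 3.76 to 4.19 and 3.11 to 4.14 RPKM. The groups did not overlap with wild-type in either sex, and both calls held in all 18 refits.

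Slc6a20a, which carries proline and betaine, fell by 0.39 ± 0.09 in Dp16 (edgeR adjusted p = 0.0187) and by 0.36 ± 0.09 in Dp16 2xIFNRs (adjusted p = 0.027). The first call was lost without Dp16 replicate 1 (adjusted p = 0.0539), and the second held in 12 of 18 refits (adjusted p up to 0.0685). Among others, the second was lost without wild-type replicate 2 (edgeR adjusted p = 0.0567) or 5 (0.0585). Wild-type females had 6.03 to 8.89 RPKM, and Dp16 females, at 5.28 to 6.24, overlapped them. Without sex as a term in edgeR the calls of Ftcd, Flvcr1 and Slc6a20a in both groups and of Slc6a12 in Dp16 were lost; the log2 folds were then -1.17 and -1.19 for Ftcd and 0.59 and 0.59 for Flvcr1.

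**Figure D5:**
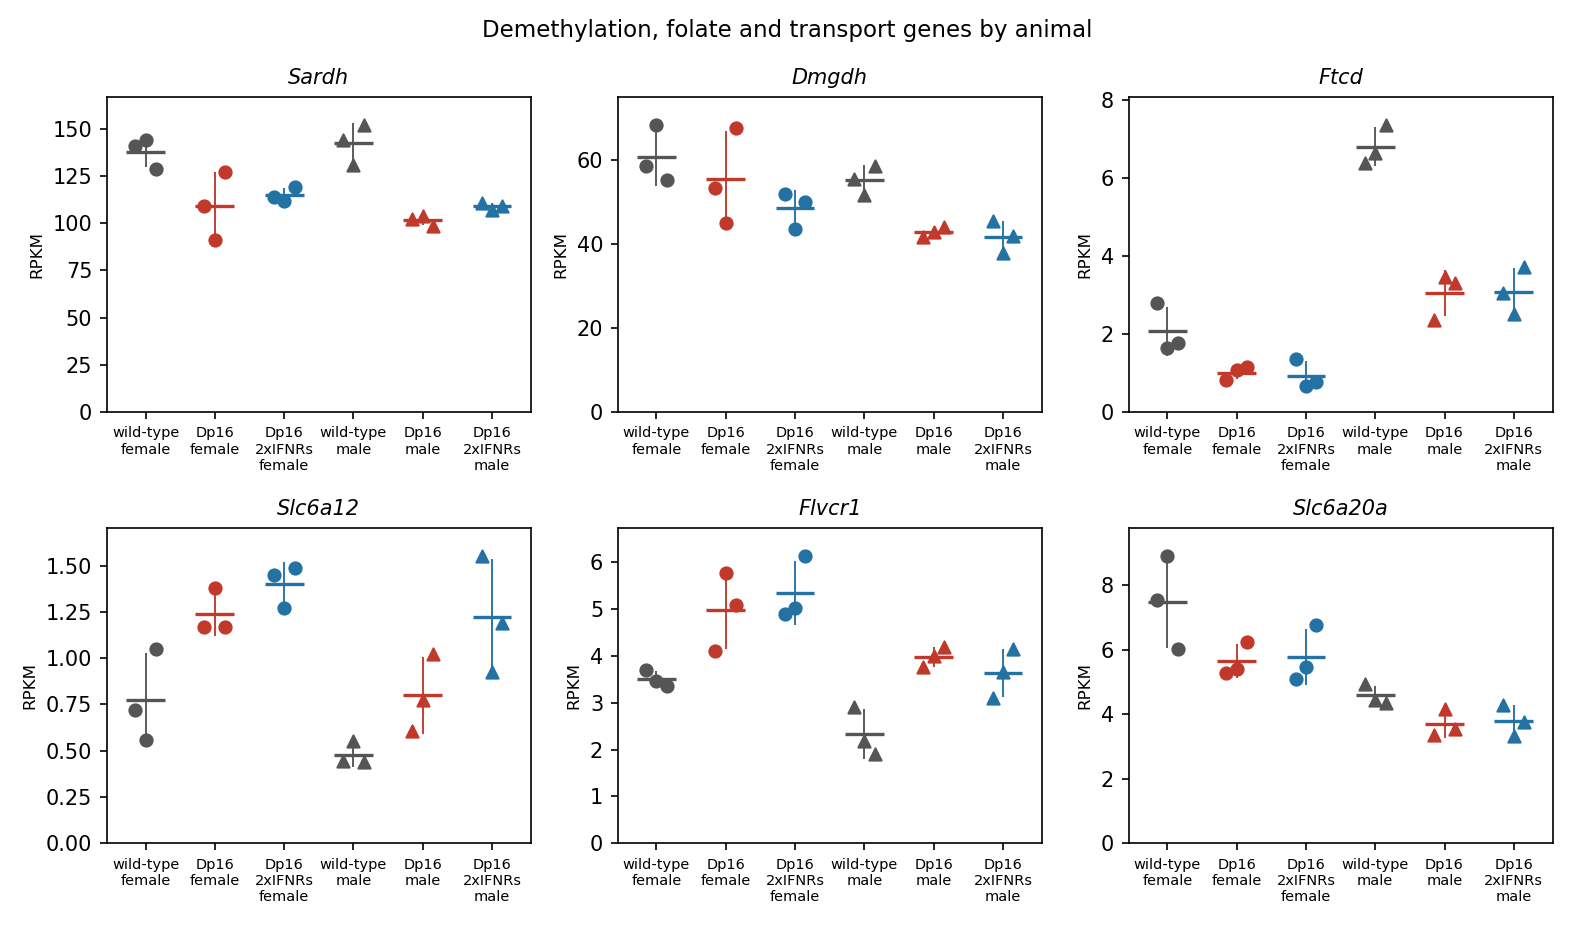
RPKM of Sardh, Dmgdh, Ftcd, Slc6a12, Flvcr1 and Slc6a20a in each animal by genotype and sex, with means (horizontal lines) and 1 SD (vertical lines, n = 3). Sardh and Ftcd are lower and Slc6a12 and Flvcr1 higher in both duplication groups than in wild-type animals of the same sex, without overlap.

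The other calls were small. In both duplication groups Dao, which oxidises D-amino acids, fell (log2 fold -0.23 and -0.22), as did Mpst, a mercaptopyruvate sulfurtransferase (-0.27 and -0.34), and Amn, a partner of the cobalamin receptor (-0.25 and -0.26). Ahcy, which splits S-adenosylhomocysteine, fell in Dp16 (-0.25), as did the mitochondrial Shmt2 (-0.28). Mri1 of methionine salvage (-0.29), the sulfurtransferase Tst (-0.39), Agxt2 (-0.38) and thymidylate synthase Tyms (-0.36) fell in Dp16 2xIFNRs. Standard errors were 0.05 to 0.10 and edgeR adjusted p-values 0.00993 to 0.046. Both calls of Dao and the Dp16 2xIFNRs calls of Mpst and Amn held in all 18 refits, while Ahcy kept its call in 7, Mpst in Dp16 in 8, Amn in Dp16 in 14 and Shmt2 in 3. Mri1 kept its call in 10, Tst in 12, Agxt2 in 14 and Tyms in 15. Without wild-type replicate 2 the calls of Ahcy, Shmt2 and Amn in Dp16 and of Mri1 and Agxt2 in Dp16 2xIFNRs were lost. Without wild-type replicate 5 those of Ahcy in Dp16 and Mri1 in Dp16 2xIFNRs were lost. Of the 8 methyl acceptor genes and 5 folate transport genes, 0 were called by edgeR in either comparison with wild-type, where 4.23% and 4.79% of all genes were, so that lists this short can hold no call at that share. DESeq2 called Hnmt, a histamine methyltransferase, in Dp16 2xIFNRs (-0.29, adjusted p = 0.0263) and none of the others. Their counts at an unadjusted p under 0.05 were 2 and 1, and 0 and 0.

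More of these genes were called by sex than by genotype. Of the 104 genes 42 were higher in males and 22 higher in females (61.5%, against 38.8% of all genes). Cbs, the entry to transsulfuration, was at 37.1 to 39.0 RPKM in wild-type males and 17.2 to 18.2 in wild-type females, a log2 fold of 1.26 ± 0.06 over all animals (edgeR adjusted p = 2.37e-12). Inmt, an indolethylamine methyltransferase (2.08 ± 0.16), and Slc22a2, a basolateral transporter of organic cations including choline (1.01 ± 0.05), were also higher in males. Etnk1, an ethanolamine kinase, was higher in females (-0.99 ± 0.06), and so was Mpst (-0.77 ± 0.06). Cbs gave -0.08 ± 0.07 and -0.02 ± 0.07 in the comparisons with wild-type.

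Over 12528 genes off the segment whose log2 CPM averaged 1 or more, Cyp2c23 had the pattern most like that of Bhmt over the 18 libraries. It encodes an arachidonic acid epoxygenase of the kidney. Since the sexes form separate clusters, Pearson correlations of log2 CPM are given within them: 0.96 over 9 females and 0.95 over 9 males for Cyp2c23. Genotypes also differ within each sex, and after group and sex means were removed the correlation was 0.70.

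Cyp2c23 stood at 45.6 ± 1.27 RPKM in wild-type, 29.5 ± 2.77 in Dp16 and 29.0 ± 1.26 in Dp16 2xIFNRs females (SD, n = 3). Males had 14.2 ± 2.60, 9.90 ± 1.63 and 9.28 ± 0.752 RPKM. Its steps between groups were smaller than those of Bhmt, with log2 folds of -0.61 ± 0.08 and -0.67 ± 0.08 against wild-type.

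Next came Gm10639, Cyp2d26, Ugt1a1, Gsta2, Pdxk, Abcb1b and Rdh16, with correlations of 0.67 to 0.89 within females and 0.81 to 0.96 within males. Counts of Gm10639, Gsta2 and Ugt1a1 are uncertain, since they belong to families with near-identical copies or shared exons. The most opposite patterns were those of Rhoc, Tmigd1, Tspan5 and Hsd11b1, at -0.91 to -0.76 within females and -0.92 to -0.77 within males. The choice rests on sex to a large part: of the first 8 genes 1 was also among the 8 highest within females, 0 within males, and 0 once group and sex means were removed.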

How the data were processed

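Per the labels' protocols, kidney RNA was extracted with TRIzol, strand-specific polyA libraries were made with a Tecan/NuGEN kit, and paired ends were read on a NovaSeq instrument. The submitters' processing notes name bcl2fastq, FastQC 0.11.5, HISAT2 2.1.0, SAMtools 1.5, HTSeq 0.6.1 and build GRCm38. The authors deposited raw counts per gene, with no normalization, and RPKM values of the same 55385 genes. In 13828 of 13828 genes checked, counts divided by deposited RPKM gave 1 gene length in all libraries within 0.1%.

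Counts were tested with edgeR 4.0.16 (quasi-likelihood, TMM) in R 4.3.3, in 1 fit of 18 libraries with group and sex, and interactions with their product. The filter (minimum count 10, total 15) left 17575 genes. P-values are two-sided, Benjamini-Hochberg adjusted over all genes tested, with 0.05 as threshold; a standard error is the log2 fold over the square root of F. The biological coefficient of variation was 16.8%, and no libraries were duplicates. CPM used TMM, with a prior count of 2 on the log2 scale. DESeq2 1.42.0, limma 3.58.1 (pseudocount 0.1 on RPKM) and other designs were alternatives, and the fits were tested on simulated data. The precision is limited by the 3 animals per genotype and sex.

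The 10 genes, the lists and the tests were chosen with earlier results of these data known. Named were the 10 genes, the pathway genes called between genotypes, of each pathway list up to 2 genes of smallest p for sex, and the 8 genes most like and 4 most opposite to Bhmt. Some sex genes taken by the rule are given only in counts. The liver, adrenal and Dbp values by library, the within-sex correlations and the motifs were added after the data were seen. Promoters are from RefSeq, which held 9 of the 10 genes, and positions from GENCODE M21.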

Additional observations from a re-analysis of the deposited data

How the results depend on the processing

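Over the other settings tried, the log2 folds of the named genes were counted as unchanged in 3900 cases, lost a call in 128 and gained one in 50. None reversed a call. The first count holds uncalled folds near 0 that changed sign, such as Gnmt in Dp16 (-0.06 to 0.1). It also holds Bhmt against wild-type without sex as a term, which did not pass there. Against wild-type, 744 genes were called in Dp16 and 841 in Dp16 2xIFNRs. Without sex as a term these fell to 190 and 234, since the spread then holds the sex difference, and Ftcd lost its calls (log2 folds -1.17 and -1.19, adjusted p = 0.422 and 0.392), as did Flvcr1 (adjusted p = 0.0644 and 0.0643). The folds of Bhmt were then -1.67 and -1.97, and neither passed, while 27 of 28 alternative settings called Bhmt in each group. Bhmt was chosen on these folds, so its calls are a description. DESeq2 gave 1236 and 1287, and the fit of 2 groups alone 453 in Dp16. Leaving out 1 library gave 429 to 815 and 526 to 920. The count fell most in Dp16 without wild-type replicate 4 (478) or Dp16 replicate 1 (462) or 3 (429), and in Dp16 2xIFNRs without wild-type replicate 1 (526) or Dp16 2xIFNRs replicate 1 (552). Without wild-type replicate 2, which holds liver RNA, it was 561 and 596. Members called in Dp16 other than Bhmt numbered 1 in edgeR, 2 with RLE size factors or the description number as a random block, 3 without the count filter, 4 in DESeq2 and 1 to 3 with a library left out. The cause was not tested.

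Interactions called 3, 1 and 0 genes (Dp16 against wild-type, Dp16 2xIFNRs against wild-type, and between them), 32, 23 and 1 in DESeq2, and 2 to 14, 0 to 9 and 0 to 0 with a library left out, the highest 2 both without Dp16 replicate 3. Sample numbers are shared between groups and were not taken as pairs in the main fits. Deviations of same-numbered animals correlated above 0.1 in 11 of 18 pairs (range -0.377 to 0.396). In 7 of 18 the same-numbered animal of the second group was the closest to that of the first, looked for in 1 direction only. These values do not decide whether the numbers pair animals. With the replicate block 910 and 945 genes were called against wild-type, and 0 and 2 in the first 2 interactions. Depth limits Bhmt in males, where it has 42 counts at the lowest.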
